A study of Rattus norvegicus with 69 samples.

Results

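Chemokines are small secreted proteins that draw leukocytes along a gradient, and their receptors sit on the membrane of the responding cells. They fall into CC, CXC, XC and CX3C families by the spacing of conserved cysteines, and most of their receptors signal through inhibitory G proteins, whereas the atypical receptors Ackr1 to Ackr4 bind chemokines and mainly take them up or carry them without that signal. In the liver, Kupffer cells, sinusoidal endothelium, stellate cells, bile duct cells and hepatocytes all make chemokines, and leukocytes entering the sinusoids bear most of the classical receptors. The genes described here were chosen by name and biotype alone. They are the protein-coding genes of the deposited count table named Ccl, Cxcl, Ccr or Cxcr with a number, with Cx3cl1, Cx3cr1, Xcl1, Xcr1 and Ackr1 to Ackr4, and they came to 56 of 38513 genes, of which 22926 were protein-coding. They comprise 20 CC ligands, 12 CXC ligands, 2 other ligands, 10 CC receptors, 6 CXC receptors and 6 other or atypical receptors.

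Liver RNA of 69 Wistar rats was sequenced as poly(A)-selected, strand-specific libraries. RYGB animals (label Bypass, n = 14) had a Roux-en-Y gastric bypass and sham animals (label Sham, n = 12) a sham operation, after obesity had been induced in adult males with a high-fat diet. Obese animals of the pharmacological arm received liraglutide+PYY3-36 (label PYY_Lira, n = 11), PYY3-36 alone (label PYY, n = 5), liraglutide alone (label Lira, n = 5) or saline (label Saline, n = 8), where liraglutide is an agonist of the GLP-1 receptor and PYY3-36 a gut peptide that acts on the Y2 receptor. All of these animals had a free choice between high-fat and low-fat chow after treatment began and were fasted overnight before the liver was taken. The labels BWM (n = 8) and Lean (n = 6) mark a further 14 libraries, whose treatment, age and diet are not given in the sources used here. The labels also assign each library to batch A (41 libraries) or batch B (28 libraries) without saying what a batch is. PYY3-36 and liraglutide alone are entirely in batch B, BWM and Lean entirely in batch A, and RYGB (11 in A, 3 in B), sham (7 in A, 5 in B), liraglutide+PYY3-36 (6 in A, 5 in B) and saline (3 in A, 5 in B) in both. According to the methods, 6 combination and 3 saline animals were fed for longer than the rest. The labels do not say which animals these were, but their numbers equal those of the batch A libraries of these groups (6 and 3), so that longer feeding and batch may coincide there and cannot be told apart.

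Total counts ranged from 9110860 to 27559144 per library (median 21027325). Alb, the albumin gene of hepatocytes, was at 39480 to 375200 CPM (read counts scaled to a fixed library total), so that every library had the leading transcript of liver. The first principal component (36% of the variance) separated the batches, with batch A libraries at -3.39 or below and batch B libraries at 11.1 or above. On it, 6 batch B libraries (sham 12, PYY3-36 5, liraglutide 4 and liraglutide+PYY3-36 8, 9 and 11) stood apart at 112 or above. Saline 9 (80.0) and liraglutide 5 (79.4) came next. Counts of called genes are also given without the 6 libraries. In what follows, CPM are scaled by the TMM method, which corrects the library total for a few dominant genes. Fold changes are from edgeR's quasi-likelihood test in 1 model with terms for the 8 groups and for batch, the Benjamini-Hochberg adjustment was made over all 16676 genes that passed the filter on low counts, and a gene was called at an adjusted p under 0.05. Animals were counted as replicates because the labels number them as separate samples. Of the 56 genes, 32 passed the filter and 24 did not.

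Chemokine RNA in these livers was mostly ligand RNA, and a few ligands made up nearly all of it. Divided by exon length so that genes can be compared, the highest median level over 69 livers was that of Ccl9 (401 CPM per kb, range 267 to 637), which stood at rank 187 of the 16676 genes tested. Ccl9 is a CC chemokine that in mouse signals through Ccr1. It was followed by Ccl6 (57.3 CPM per kb), a related CC ligand of myeloid cells in mouse, by Cxcl12 (46.1 CPM per kb), the ligand of Cxcr4 and Ackr3 that holds blood progenitors and lymphocytes in tissue niches, and by Cxcl11 (23.9 CPM per kb), an interferon-inducible ligand of Cxcr3. Ccl5 (11.5 CPM per kb), a ligand of Ccr1, and Cxcl9 (9.96 CPM per kb), another Cxcr3 ligand, came next. Ccl9 and Cxcl12 together took 63.0% to 86.3% (median 76.7%) of the summed CPM per kb of the 56 genes in a library.

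Receptors were lower. The highest were Cxcr4 (1.35 CPM per kb), which answers Cxcl12, and the atypical receptors Ackr3 (1.23 CPM per kb), which removes Cxcl12 and Cxcl11, and Ackr4 (1.11 CPM per kb), which removes Ccl19 and Ccl21. Cxcr5, the B cell receptor for Cxcl13, was at 0.609 CPM per kb. Among the CC receptors, Ccr1 was at 0.12 CPM per kb, and Ccr6 had the lowest median of the 32 genes. Of the remaining ligand families, Xcl1, a product of NK and T cells, was at 1.41 CPM per kb and Cx3cl1, a membrane-bound ligand, at 0.248 CPM per kb. By class, 11 of 20 CC ligands, 8 of 12 CXC ligands, both other ligands, 3 of 10 CC receptors, 3 of 6 CXC receptors and 5 of 6 other or atypical receptors passed the filter.

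**Figure D1:**
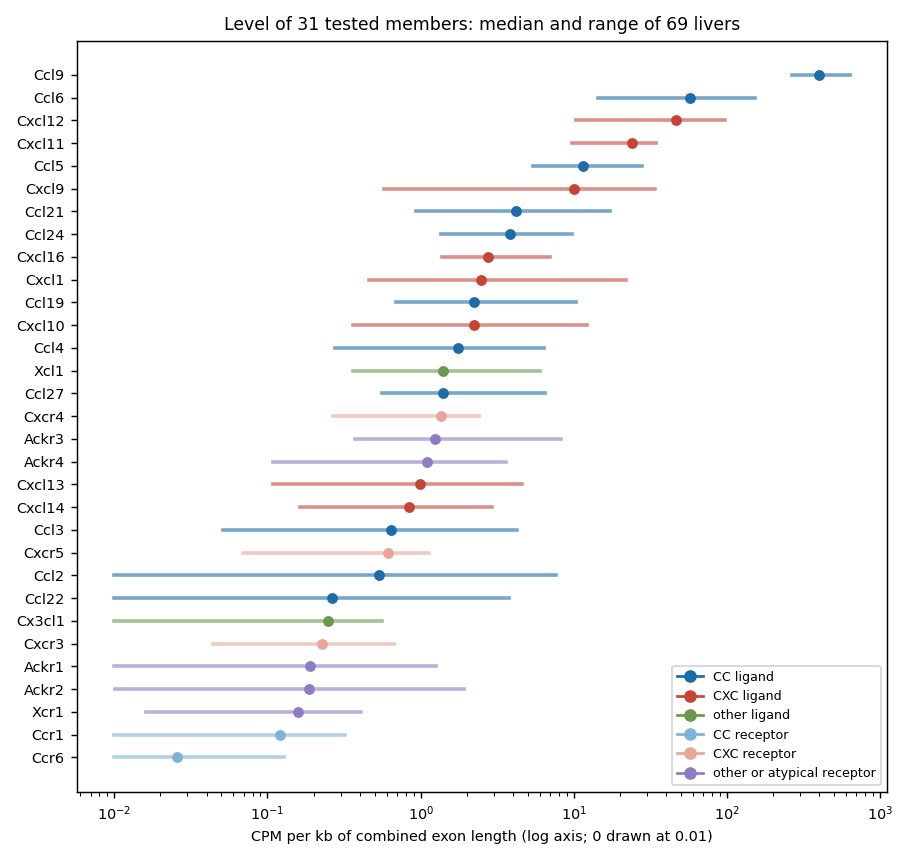
Median (point) and range (line) of CPM per kb of exon over 69 livers for 31 of the 32 chemokine and receptor genes that passed the filter, on a log axis, coloured by class. Ccl9 at 401 CPM per kb lies above all others, and the receptors, led by Cxcr4 at 1.35 CPM per kb, lie in the lower part.

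The 24 genes that did not pass were at or near the limit of detection. For 15 of them the median over 69 livers was 0 CPM, and the largest total over all libraries was 260 reads. Among the neutrophil-attracting ligands, Cxcl2, Cxcl3 and Cxcl6 had a median of 0, and so did the receptors Cxcr1, Ccr3, which binds eotaxins, and Ccr4, which binds Ccl17 and Ccl22. Cxcr2, Cx3cr1, Ccr7, Cxcr6 and Ccl17 were low, with medians of 0.039, 0.0634, 0.108, 0.132 and 0.168 CPM per kb. These 24 were left out of the main test. When no filter on low counts was applied, 1 of them was called between RYGB and sham, Ccl20, the ligand of Ccr6, which was higher in RYGB livers. It had 0 reads in 9 of 14 RYGB livers and at most 2 reads in the other 5, against 0 reads in all 12 sham livers, and it is named here after its values were seen.

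Between RYGB and sham, 4 of the 32 genes were called, and all of them were ligands that were lower after RYGB: Cxcl12, Ccl22, Ccl9 and Cxcl10. Over all genes, 3.12% were called in this comparison and 1.58% were called as lower. The log2 fold change was below 0 for 23 of the 32 genes (median -0.18) and for 50.9% of all genes (median -0.01). In whole liver, fewer cells of a type and less RNA per cell cannot be told apart. Without the 6 libraries that stood apart, the same 4 genes were called, and the share of all genes called there is not given.

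The RefSeq promoters of these 4 ligands are shown because the genes were lower in the same comparison. They run 5′ to 3′ on the coding strand from 250 bases before to 50 bases after the annotated start in build GRCr8, a later build than the one the reads were aligned to. Capitals mark every match to the core of the interferon-stimulated response element (GAAANNGAA, both strands), to the NF-kappaB consensus (both strands) and to the TATA box (TATAAA, coding strand). The windows are chr4:152060531-152060830 (+) for Cxcl12, chr14:15988816-15989115 (+) for Cxcl10, chr19:10270310-10270609 (-) for Ccl22 and chr10:68868828-68869127 (-) for Ccl9.
Cxcl12: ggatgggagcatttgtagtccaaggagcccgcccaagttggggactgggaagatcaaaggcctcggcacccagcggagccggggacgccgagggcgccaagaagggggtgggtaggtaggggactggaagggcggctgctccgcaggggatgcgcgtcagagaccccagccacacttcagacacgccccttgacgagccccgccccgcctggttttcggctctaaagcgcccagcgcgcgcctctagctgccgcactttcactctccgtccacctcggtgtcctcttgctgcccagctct
Cxcl10: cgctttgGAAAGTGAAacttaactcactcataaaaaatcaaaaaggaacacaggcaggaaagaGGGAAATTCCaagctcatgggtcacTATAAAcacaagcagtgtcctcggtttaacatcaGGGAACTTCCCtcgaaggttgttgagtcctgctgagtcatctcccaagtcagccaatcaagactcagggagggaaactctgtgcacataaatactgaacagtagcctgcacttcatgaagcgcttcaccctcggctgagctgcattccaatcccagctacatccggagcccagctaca
Ccl22: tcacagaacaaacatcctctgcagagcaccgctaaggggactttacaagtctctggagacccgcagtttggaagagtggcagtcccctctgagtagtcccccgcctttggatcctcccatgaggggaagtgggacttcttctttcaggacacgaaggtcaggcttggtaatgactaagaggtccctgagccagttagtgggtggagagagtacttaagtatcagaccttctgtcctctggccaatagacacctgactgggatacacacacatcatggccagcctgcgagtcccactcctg
Ccl9: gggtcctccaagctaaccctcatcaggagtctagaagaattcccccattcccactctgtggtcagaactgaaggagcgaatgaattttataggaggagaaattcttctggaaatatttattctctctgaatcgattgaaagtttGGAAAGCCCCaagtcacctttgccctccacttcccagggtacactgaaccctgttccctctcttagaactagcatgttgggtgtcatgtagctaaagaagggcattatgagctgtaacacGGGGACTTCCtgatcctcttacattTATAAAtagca

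The Cxcl10 window held all 3 motifs, with the interferon element starting 243 bases before the start and NF-kappaB matches starting 187, 128 and 127 bases before it, the last 2 being the same stretch read on both strands. Its TATA match lay between them, starting 162 bases before the start. The Ccl9 window held an NF-kappaB match before the start, while its other NF-kappaB match and its TATA match lay after the annotated start, and the windows of Cxcl12 and Ccl22 held none of the 3. Promoters were found for 42 of the 56 genes. The interferon element was in 2 of these (Cxcl10 and Ccl19) and in 9.7% of all 33469 RefSeq promoters of this length, the NF-kappaB consensus in 9 and in 7.5% of all, and the TATA box in 12 and in 8.8% of all. These are matches of letters, and binding was not measured.

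Cxcl12 lies on chromosome 4 (149261044 to 149273891 in Rnor_6.0). In RYGB livers it was at 71.1 CPM at the lowest, 179.8 at the median and 325 at the highest (n = 14), against 195 at the lowest, 327 at the median and 616 at the highest in sham livers (n = 12). All 14 RYGB livers were below the sham median and 9 of them below every sham liver, although the groups overlapped. The difference was -0.89 on the log2 scale (SE 0.18, adjusted p = 0.00119). RYGB livers averaged 198 ± 79.9 CPM and sham livers 345.5 ± 123 CPM (SD, n = 14 and 12). Within batch A alone the difference was -0.84 (adjusted p = 0.00378), and within batch B, with 3 against 5 livers, -1.03 (adjusted p = 0.579).

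Ccl22, made by dendritic cells and macrophages and sensed through Ccr4, lies on chromosome 19 (10674189 to 10681145 in Rnor_6.0). In RYGB livers its lowest, median and highest values were 0, 0.18 and 0.374 CPM, against 0.0905, 0.619 and 6.59 CPM in sham livers. All RYGB livers lay below the sham median, and 10 of 12 sham livers lay above the highest RYGB liver. The log2 fold change was -2.23 (SE 0.50, adjusted p = 0.00363). The counts behind it were small, at 0 to 9 reads per RYGB library and 2 to 149 per sham library. The highest value belongs to sham 11, and without that library the difference was -1.63 (adjusted p = 0.0248). DESeq2 with its shrinkage prior and batch put it at -1.16 (adjusted p = 0.000708). Within batch A it was -1.43 (adjusted p = 0.0719) and within batch B -3.26 (adjusted p = 0.404). Depth differed in batch B, where the 3 RYGB libraries had total counts of 9110860 to 13941960, against 14052862 to 22236158 in the 5 sham libraries.

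Ccl9 lies on chromosome 10 (70783426 to 70788372 in Rnor_6.0). Its values were 404 at the lowest, 482 at the median and 767 at the highest in RYGB livers, against 423, 708 and 842 CPM in sham livers. Of the 14 RYGB livers, 13 were below the sham median, but only 2 were below every sham liver. The log2 fold change was -0.50 (SE 0.12, adjusted p = 0.00556), with -0.52 in batch A (adjusted p = 0.00557) and -0.45 in batch B (adjusted p = 0.86). In 95.7% of libraries the deposited Ccl9 value was not a whole number, because reads shared with another place or gene had been divided, so its level is uncertain to that extent.

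Cxcl10, an interferon-inducible ligand of Cxcr3, lies on chromosome 14 (17210733 to 17212930 in Rnor_6.0). Its lowest, median and highest values were 0.412, 1.51 and 4.27 CPM in RYGB livers, against 1.44, 3.05 and 13.8 CPM in sham livers. There were 7 RYGB livers below every sham liver and 2 sham livers (9 and 11) above every RYGB liver. The log2 fold change was -1.01 (SE 0.29, adjusted p = 0.0318), with -0.81 in batch A (adjusted p = 0.0778) and -1.16 in batch B (adjusted p = 0.848). The call rested on single libraries. It was lost without sham 11 (-0.78, adjusted p = 0.125) and, with differences of -0.94, -0.94, -0.96 and -1.0, without RYGB 1, 7, 12 or 13 (adjusted p = 0.05, 0.0595, 0.0634 and 0.0541). The other Cxcr3 ligands were not called, Cxcl9 at -0.48 (SE 0.33, adjusted p = 0.613) and Cxcl11 at -0.14 (SE 0.12, adjusted p = 0.713).

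**Figure D2:**
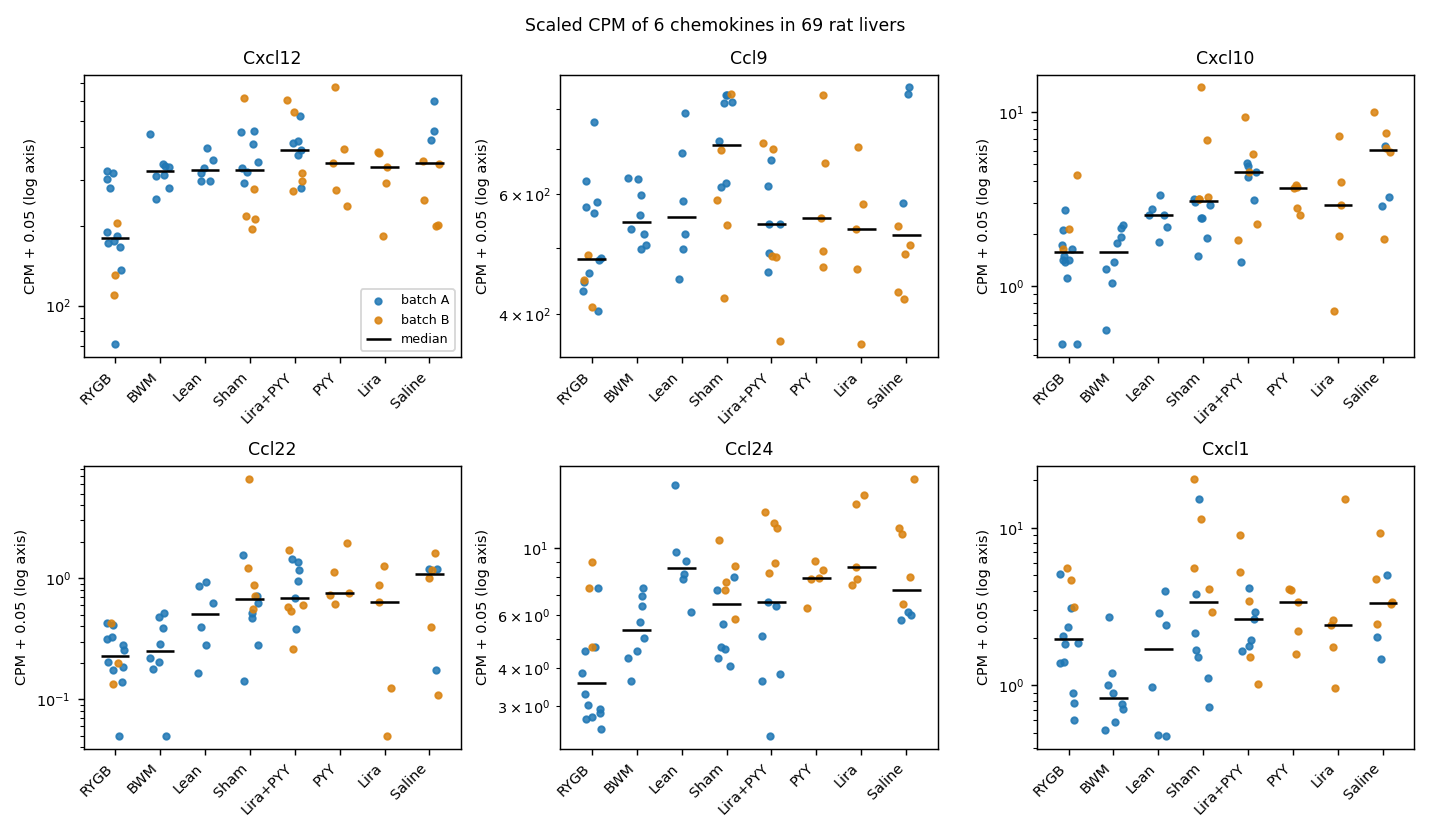
Scaled CPM (with 0.05 added, log axis) of 6 chemokines in each of 69 livers by group, coloured by batch, with the group median as a bar. RYGB livers sit low for Cxcl12 (71.1 to 325 CPM, against 195 to 616 CPM in sham), and sham 11 is the highest point for Cxcl10 and Ccl22.

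Counts of unadjusted p-values in the comparisons of groups are given without the share over all genes, and no trend is read from them. A further 6 genes had an unadjusted p under 0.05 between RYGB and sham, all with negative values, and none passed the adjustment. They were Ccl24, an eotaxin that attracts eosinophils (-0.44, SE 0.17, adjusted p = 0.181), Cxcl1, which attracts neutrophils through Cxcr2 (-1.03, SE 0.41, adjusted p = 0.207), Cxcl16 (-0.39), Cxcl13, which attracts B cells (-0.87, SE 0.35, adjusted p = 0.223), the monocyte attractant Ccl2 (-1.15, SE 0.51, adjusted p = 0.292), and Xcl1 (-0.64). Cxcl13 passed the threshold without RYGB 13 (-1.37, adjusted p = 0.0156) and Ccl24 without RYGB 10 (-0.55, adjusted p = 0.0432). For Cxcl1 the difference was -0.49 without sham 4, a liver at 15.3 CPM. None of the 11 receptors that passed the filter was called, and their values lay between -0.57 (Ccr6) and 0.48 (Ccr1).

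Marker lists of liver and blood cells were read from the same libraries. Kupffer cell and macrophage markers had 12 of 14 positive values with a median of 0.27 and a summed level of 341 to 986 CPM in RYGB livers, against 312 to 726 CPM in sham livers, and Vsig4, a complement receptor of Kupffer cells, was called as higher (0.61, SE 0.18, adjusted p = 0.0486). Dendritic cell markers had 6 of 7 negative values with a median of -0.45, none of them called and 3 with an unadjusted p under 0.05, and summed to 4.6 to 9.23 CPM in RYGB livers, against 6.1 to 12.8 CPM in sham livers. T cell markers were negative in 7 of 9 (median -0.29) and NK cell markers in 8 of 10 (median -0.22), with none called and 2 and 1 at an unadjusted p under 0.05. Stellate cell markers were positive in 8 of 10 (median 0.15) and summed to 101 to 301 CPM in RYGB livers, against 102 to 719 CPM in sham livers, with none called. Red blood cell markers were negative in all 9 tested, with a median of -0.77, none called and 1 at an unadjusted p under 0.05, and summed to 52.8 to 1317 CPM in RYGB livers, against 139.7 to 1606 CPM in sham livers. No gene of these 6 marker lists was at 0 in all libraries. Of the remaining lists, 1 had a called marker, Cela1, a pancreatic elastase (0.90 higher in RYGB, SE 0.24, adjusted p = 0.0187), in a list of 7 pancreas markers of which 2 were tested and which summed to 11.9 to 96.9 CPM in RYGB livers, against 7.89 to 71.8 CPM in sham livers. The pancreatic lipase gene Pnlip was at 0 in all libraries. The part of these markers in the ligand values was not tested.

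Other genes of the chemokine pathway were read against the 3.12% of all genes called between RYGB and sham. Of 36 tested genes for G proteins, kinases and small GTPases below the receptors, 1 was called, Ptk2b, a calcium-activated focal adhesion kinase (0.52 higher in RYGB, SE 0.14, adjusted p = 0.0153), with a median of -0.02 over the list. None was called among 10 genes of receptor desensitization (1 at an unadjusted p under 0.05), 18 cytokines, NF-kappaB and interferon regulators (0), 12 chemokine-related genes outside the naming rule (3) and 19 adhesion genes (1).

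**Figure D3:**
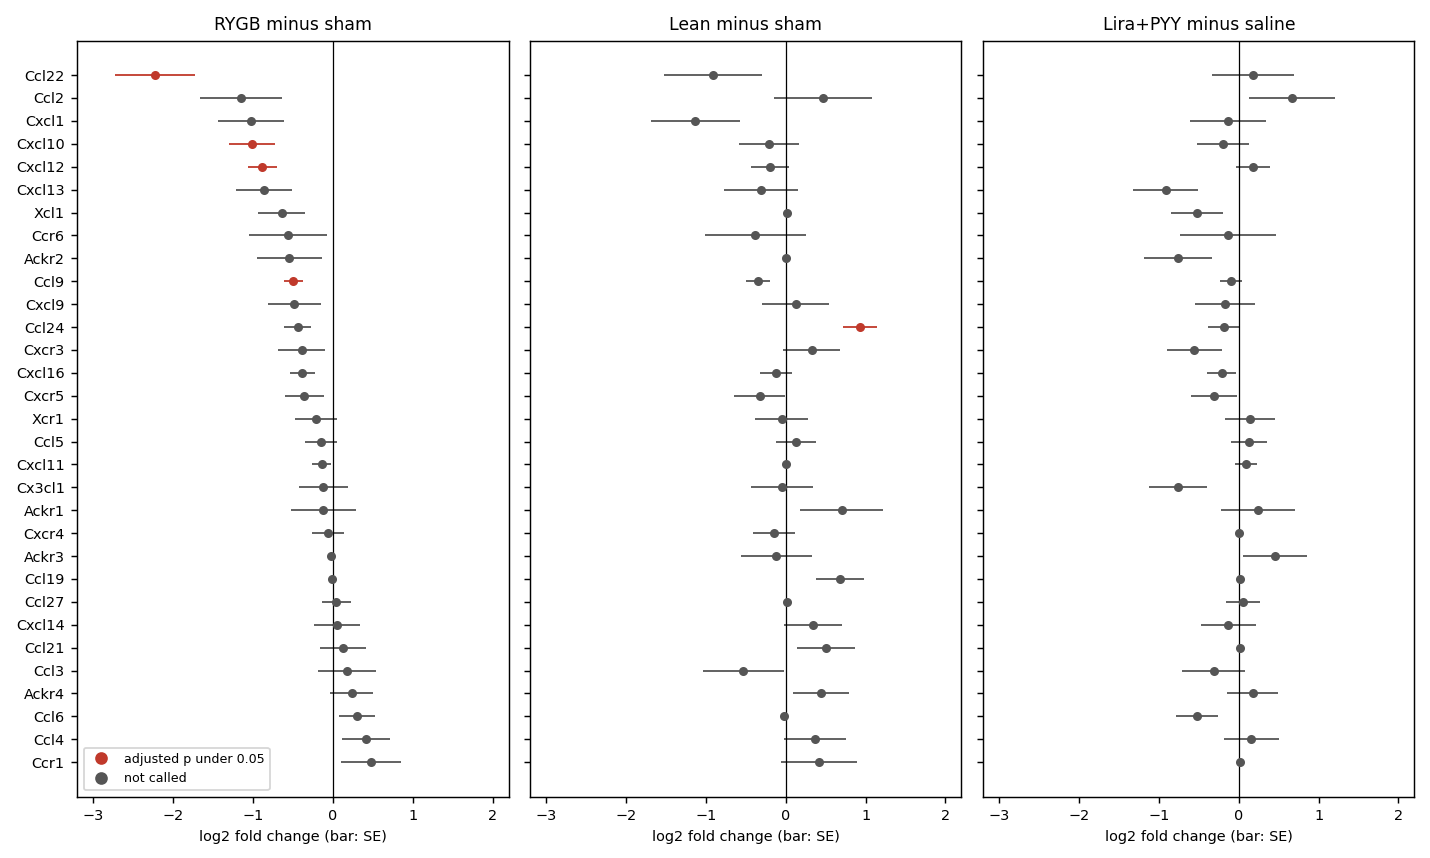
log2 fold change of 31 of the 32 genes (bar, SE, left out where the estimate was too close to 0 to give one) in RYGB over sham, Lean over sham and liraglutide+PYY3-36 over saline, in the order of the first comparison, with called genes in red. The called genes are Cxcl12, Ccl22, Ccl9 and Cxcl10 for RYGB and Ccl24 for Lean, and none for liraglutide+PYY3-36.

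BWM and Lean livers were compared with the same 12 sham livers, so these values and those of RYGB are not independent. In Lean over sham, Ccl24 was the only gene called of the 32, and it was higher, where 0.612% of all genes were called and 0.48% were called as higher. Ccl24 lies on chromosome 12 (24131529 to 24152626 in Rnor_6.0). Lean livers were at 6.08 at the lowest, 8.56 at the median and 16.2 CPM at the highest, against 4.03, 6.48 and 10.6 CPM in sham livers. There were 5 of 6 Lean livers above the sham median, and 1 was above every sham liver. The log2 fold change was 0.93 (SE 0.21, adjusted p = 0.0141). It rested on the batch term, since all Lean livers are in batch A and Ccl24 was 0.89 higher in batch B than in batch A on the log2 scale, and without that term the difference was 0.54 (adjusted p = 0.722). Against the 7 batch A sham livers alone (9.48 ± 3.49 CPM in Lean and 5.47 ± 1.54 CPM in sham, SD), it was 0.78 (adjusted p = 0.134). Without Lean 5 it was 0.71 (adjusted p = 0.164). Values of Ccl24 were not whole numbers in 66.7% of libraries, so reads shared with another place or gene enter its level. Sinusoidal endothelial markers were positive in all 9 in Lean over sham (median 0.51, none called), and their part in this value was not tested. Outside the ligands, Il1a, an inducer of chemokines, was called as higher in Lean (1.10, SE 0.26, adjusted p = 0.0226). It was the 1 call among 18 tested cytokines, NF-kappaB and interferon regulators, of which 12 were positive and 6 negative. The monocyte marker Cd14 was called as lower (-1.44, SE 0.35, adjusted p = 0.0234), but 5 of 8 monocyte markers were positive and 3 negative (median 0.07).

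In BWM over sham, 0.042% of all genes were called and none of the 32, with 6 at an unadjusted p under 0.05. DESeq2 with batch called 1, DESeq2 without batch 3 and limma-voom 0. The shares of all genes called by these tools are not given, here or in the comparisons below. Their counts therefore cannot be set against the shares of the main test. The lowest p was that of Cxcl1, at 0.471, 0.778 and 2.68 CPM (lowest, median and highest) in BWM livers, against 0.678, 3.32 and 20.4 CPM in sham livers (-1.99, SE 0.53, adjusted p = 0.222), and DESeq2 with batch called it (-1.08, adjusted p = 0.0359). Without sham 4 the Cxcl1 difference was -1.38, and without BWM 6 it was -2.38. The same 4 ligands as in RYGB had values of -1.89 (Ccl22, SE 0.59), -0.94 (Cxcl10, SE 0.35), -0.42 (Ccl9, SE 0.14) and -0.23 (Cxcl12, SE 0.22) in BWM over sham.

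When RYGB was set directly against BWM, 1.27% of all genes were called and none of the 32, with 5 at an unadjusted p under 0.05. Cxcl12 came closest, at 71.1, 179.8 and 325 CPM in RYGB livers, against 253, 324 and 446 CPM in BWM livers, with a log2 fold change of -0.66 (SE 0.20, adjusted p = 0.0953). DESeq2 with and without batch and limma-voom called it (adjusted p = 0.037, 0.0487 and 0.000402), and limma-voom called Ccl24 also. The direct differences of Ccl22, Ccl9 and Cxcl10 were -0.34 (SE 0.59), -0.08 (SE 0.13) and -0.07 (SE 0.33). In batch A alone, Cxcl12 was called at -0.64 (adjusted p = 0.0325). In RYGB over BWM, monocyte markers were positive in 8 of 8 (median 0.48, with Cd14 called at 1.13, SE 0.29, adjusted p = 0.0251) and summed to 41.1 to 108 CPM in RYGB livers, against 37.6 to 60.6 CPM in BWM livers. Neutrophil markers were positive in 5 of 5 (median 0.56, with Lcn2 called at 1.55, SE 0.43, adjusted p = 0.0464) and summed to 3.22 to 23.6 CPM in RYGB livers, against 2.13 to 5.88 CPM in BWM livers. Kupffer cell markers were positive in 13 of 14 and dendritic cell markers negative in 7 of 7, with none called. The part of these markers in the Cxcl12 value was not tested.

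None of the drug treatments had a called chemokine or receptor gene. In liraglutide+PYY3-36 over saline, 0.006% of all genes were called and 0 of the 32, with 3 at an unadjusted p under 0.05. The lowest p was that of Cxcl13 (-0.92, SE 0.41, adjusted p = 0.454). In PYY3-36 over saline, 0% of all genes were called and 0 of the 32, with 4 at an unadjusted p under 0.05. In liraglutide over saline, 0.006% of all genes were called and 0 of the 32, with 2 at an unadjusted p under 0.05. DESeq2 with and without batch and limma-voom called 0 in each of the 3 comparisons. All 3 share the 8 saline livers. In sham over saline, 0% of all genes were called and 0 of the 32 by each of these tools, with 2 at an unadjusted p under 0.05, and Ackr2, a scavenger of inflammatory CC chemokines, had the lowest p (-0.94, SE 0.42, adjusted p = 0.9999).

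Cxcl10 had the lowest p in both single-drug comparisons. PYY3-36 livers were at 2.5, 2.74, 3.61, 3.68 and 3.78 CPM, and liraglutide livers at 0.668, 1.9, 2.85, 3.91 and 7.25 CPM, against 1.82 at the lowest, 6.01 at the median and 9.96 at the highest in saline livers. Every PYY3-36 liver lay within the saline range and below the saline median. The differences were -1.02 for PYY3-36 (SE 0.42, adjusted p = 0.947) and -0.99 for liraglutide (SE 0.42, adjusted p = 0.708), and -0.20 for liraglutide+PYY3-36 (SE 0.32, adjusted p = 0.811). All PYY3-36 and liraglutide livers are in batch B, so their differences from saline rest in part on the batch term. Within batch B, Cxcl12 averaged 385.2 ± 171.9 CPM with PYY3-36, 314.9 ± 81.8 with liraglutide and 270.0 ± 74.63 with saline (SD, n = 5 each). Ccl9 averaged 605.3 ± 151.9, 529.2 ± 128.2 and 477.6 ± 50.22 CPM there. In the full model, Cxcl12 differed from saline by 0.18 (SE 0.21) with liraglutide+PYY3-36, 0.30 (SE 0.27) with PYY3-36 and 0.01 (SE 0.27) with liraglutide. Ccl22 differed by 0.18 (SE 0.52), 0.11 (SE 0.64) and -0.73 (SE 0.68), and Ccl9 by -0.10 (SE 0.14), 0.18 (SE 0.17) and -0.02 (SE 0.17), in the same order. For liraglutide+PYY3-36, the Cxcl12 and Ccl9 differences had opposite signs in the 2 batches. Cxcl12 averaged 399.9 CPM in batch A (n = 6) and 406.6 in batch B (n = 5), against 494.7 (n = 3) and 270.0 (n = 5) with saline. Ccl9 averaged 554.7 and 550.6 CPM, against 762.4 and 477.6 with saline. Neither difference between batches was called (quasi-likelihood test added after seeing the data, adjusted p = 0.236 and 0.21).

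Whether RYGB and liraglutide+PYY3-36 differed in effect was tested as the effect of RYGB over sham minus that of liraglutide+PYY3-36 over saline. In this test 0.036% of all genes were called and 0 of the 32, with 5 at an unadjusted p under 0.05. Cxcl12 had the lowest p, at -1.07 (SE 0.28, adjusted p = 0.15). DESeq2 with batch called it (-0.94, adjusted p = 0.0393) and DESeq2 without batch and limma-voom called none. For Ccl22 the difference of effects was -2.41 (SE 0.71, adjusted p = 0.228), for Cxcl10 -0.82 (SE 0.43) and for Ccl9 -0.40 (SE 0.18). The model holds 1 batch term for all groups. In batch A, Cxcl12 averaged 210.9 CPM in RYGB and 374.9 in sham livers, against 399.9 with liraglutide+PYY3-36 and 494.7 with saline. In batch B the means were 148.7 and 304.3, against 406.6 and 270.0. The drug difference thus changed sign between batches, and longer feeding may coincide with batch in these 2 drug groups.

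Among all 8 groups, 4 of the 32 genes differed, where 4.31% of all genes did. They were Ccl24 (adjusted p = 0.000245), Cxcl12 (adjusted p = 0.00101), Cxcl10 (adjusted p = 0.00538) and Ccl22 (adjusted p = 0.0269). The call of Ccl22 was lost without RYGB 13 or sham 4 (adjusted p = 0.0531 and 0.0509). The widest range of group means on the log2 scale, not adjusted for batch, was that of Ackr2 (2.35), followed by Ccl2 (2.02), Cxcl1 (1.91), Ccl22 (1.85) and the Ccr7 ligand Ccl19 (1.77). For Ackr2, PYY3-36 livers, all in batch B, had the highest mean on the log2 scale (median 2.16 CPM) and RYGB livers the lowest (median 0.348 CPM). On the CPM scale liraglutide livers, also all in batch B, had the highest mean and median (3.05 and 2.91 CPM), and BWM livers the lowest mean (0.524 CPM). Ccl19 had its highest mean on the log2 scale in liraglutide livers (median 5.27 CPM), all in batch B, and its lowest in BWM livers (median 0.933 CPM), all in batch A.

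More genes were called between the batches than in any comparison of groups. Of the 32 genes, 23 were called between batch B and batch A, where 60.6% of all genes were. Of these, 18 were higher in batch B (33.7% of all genes) and 5 were lower (26.9% of all genes). The median over the 32 genes was 0.75, against 0.09 over all genes. The lymph node chemokine Ccl19 was at 0.589, 3.86 and 7.41 CPM (lowest, median and highest) in batch B, against 0.495, 1.09 and 2.72 CPM in batch A (1.92, SE 0.19, adjusted p = 5.5e-14). Ccl27, a Ccr10 ligand of epithelia, was at 3.64, 6.37 and 14.9 CPM in batch B, against 1.29, 2.48 and 5.46 CPM in batch A (1.39, SE 0.14). The ranges of the batches overlapped for both ligands.

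Ccl2 (2.32, SE 0.37), the atypical receptors Ackr1 (1.77, SE 0.31), Ackr2 (1.46, SE 0.30), Ackr4 (1.18, SE 0.22) and Ackr3 (0.95, SE 0.29), and Ccl3 (1.18), Ccl21 (1.07), Cxcl1 (0.99), Ccl24 (0.89), Cxcl13 (0.87), Cxcl14 (0.85), Ccl5 (0.84), Cxcl10 (0.81), Xcl1 (0.79), Ccl4 (0.71) and Cxcl16 (0.31) were also higher in batch B. All 4 atypical receptors were thus in the higher set. Among the 5 genes that were lower in batch B were Ccl6 (-0.77, SE 0.19), Cxcr4 (-0.57, SE 0.16), Cxcl12 (-0.37, SE 0.15) and Ccl9 (-0.27, SE 0.09). The call of Cxcl13 was lost without RYGB 13 and that of Cxcl16 without saline 4, sham 11 or sham 12.

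Markers moved with batch as well, in both directions, as did 33.7% of all genes upwards and 26.9% downwards. Sinusoidal endothelial markers were called as higher in 7 of 9 and lower in 1 (median 0.57, summed level 155 to 448 CPM in batch B, against 102 to 335 CPM in batch A), T cell markers as higher in 5 of 9 (median 0.59), neutrophil markers as higher in 4 of 5 (median 0.99) and cholangiocyte markers as higher in 5 of 7 (median 0.55). Monocyte markers were called as higher in 4 of 8 and lower in 1, red blood cell markers as higher in 4 of 9, and stellate cell markers as higher in 5 of 10 and lower in 3. Kupffer cell markers were called as higher in 2 of 14 and lower in 3 (median 0.05), hepatocyte markers as higher in 1 of 8 and lower in 2 (median -0.09), NK cell markers as higher in 2 of 10 and lower in 1, B cell markers as higher in 1 of 8 and lower in 1, and dendritic cell markers as higher in 2 of 7. Of 2 tested markers each, 1 was called as higher for pancreas and for platelets and 1 as lower for adipocytes. Their part in the batch values of the chemokines was not tested. Whether the effect of RYGB over sham differed between batches was tested as an addition made after seeing the data. In this test 0% of all genes were called and 0 of the 32, with 1 at an unadjusted p under 0.05 (Cxcl14, 1.38), where 1161 of all 16676 genes had one. For liraglutide+PYY3-36 over saline, 0% of all genes were called and 0 of the 32, with 3 at an unadjusted p under 0.05 (Cxcr3 -1.88, Ccl9 0.66 and Cxcl12 0.90), where 3304 of all 16676 genes had one. RYGB had 3 livers in batch B.

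**Figure D4:**
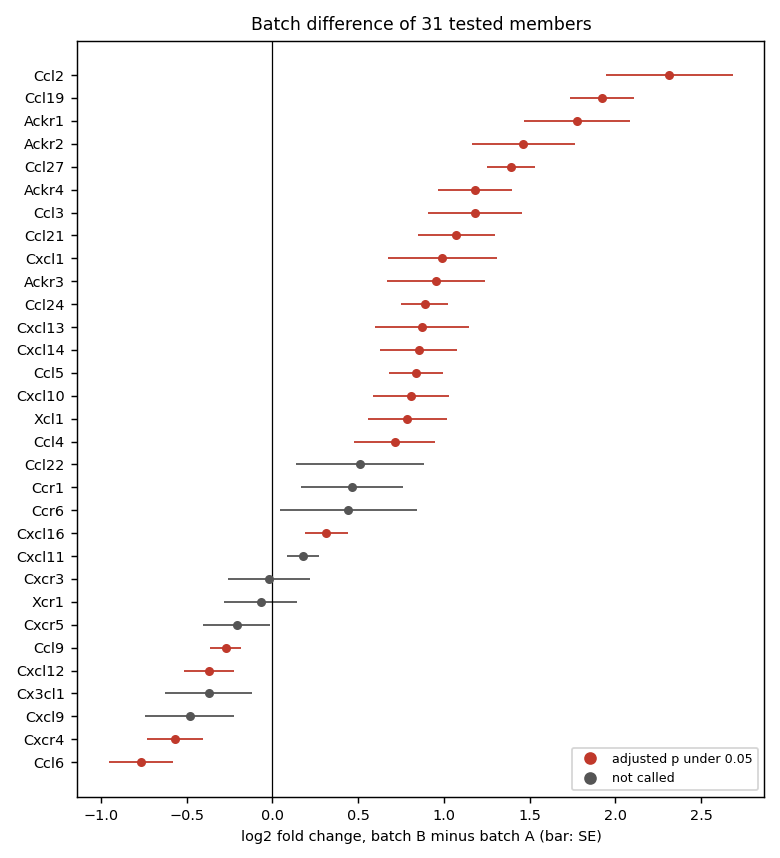
log2 fold change of 31 of the 32 genes in batch B over batch A, with groups in the model (bar, SE), called genes in red. Of the called genes, 18 lie to the right, up to Ccl2 at 2.32, and those on the left include Ccl6 at -0.77.

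Ligands were set beside their receptors across the 69 livers, after removal of group and batch means from log2 CPM, for the 17 of 34 listed pairs in which both genes had passed the filter. P-values are from two-sided permutation tests with 100000 permutations, adjusted over the 17 pairs. Cxcl12 and its scavenger Ackr3 had the highest correlation (r = 0.485, p = 3e-05, adjusted p = 0.00051, rho = 0.468, p = 0.00011, adjusted p = 0.00187). Without the 2 livers farthest from the median of Cxcl12, r was 0.464. Within batches, r was 0.229 in batch A (n = 41, permutation p = 0.152) and 0.707 in batch B (n = 28, permutation p = 4e-05), and the difference between them was not tested. Without the 6 libraries that stood apart, r was 0.18 (n = 63, permutation p = 0.158), and the relation did not pass the threshold there or in batch A.

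**Figure D5:**
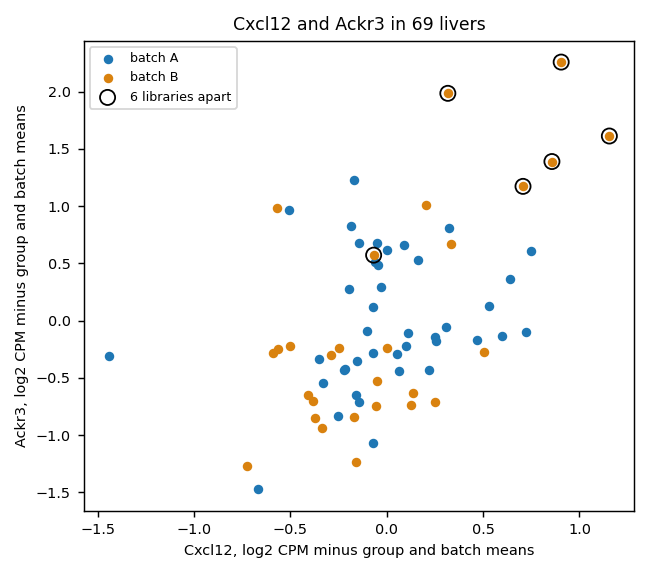
log2 CPM of Cxcl12 (x) and Ackr3 (y) after removal of group and batch means in 69 livers, coloured by batch, with the 6 libraries that stood apart circled. The circled libraries lie mostly at the upper right, and r is 0.485 with them and 0.18 without them.

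The lowest correlation was that of Cxcl11 and Ackr3 (r = -0.219, p = 0.0694, adjusted p = 0.197, rho = -0.111, p = 0.364, adjusted p = 0.443, permutation tests), which was -0.129 without the 2 farthest livers, 0.243 in batch A and -0.558 in batch B. This pair passed the threshold in batch B (permutation p = 0.00214, adjusted p = 0.0182) and not in batch A (permutation p = 0.124, adjusted p = 0.302). Without the 6 libraries that stood apart, its r was 0.117 (permutation p = 0.36). Cxcl12 and Cxcr4, the signalling receptor, had r = 0.121 (p = 0.319, adjusted p = 0.418) and rho = 0.136 (p = 0.267, adjusted p = 0.378, permutation tests), with 0.193 without the 2 farthest livers, -0.372 in batch A and 0.395 in batch B.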

How the data were processed

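RNA-seq counts of 69 livers were used. Per the labels and the methods, the authors trimmed reads with cutadapt 2.5, aligned them with STAR 2.7.2b to Rnor_6.0 and counted them per gene and strand with featureCounts 1.6.4. Reads matching several places or genes were divided, so the deposited values are estimated counts, 15.9% of them not whole, and not normalized. They were rounded. Tests were made in R 4.3.3 with edgeR 4.0.16 (filterByExpr by group, TMM, robust quasi-likelihood), with DESeq2 1.42.0 (betaPrior), limma 3.58.1 (voom with quality weights), other normalization, no filter, unrounded counts, no batch term, a replicate block, subsets and leave-one-out as alternatives, whereas the authors used DESeq2. The standard error is the log2 fold change divided by the square root of F. The test was tried on simulated counts. Correlations and permutations used numpy 2.4.6, with ranks from scipy 1.17.1. Genes named were those called, those with the lowest p in a comparison, the 2 highest of each class, the 5 with the widest group range and the outer pairs. Other genes were named after their values were seen. The genes and lists were chosen with earlier results of these data known. Promoters are from RefSeq (GRCr8). The results of 1 gene are not reported here, though it is included in the counts.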

Additional observations from a re-analysis of the deposited data

Results flagged for a closer look

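In 9 genes (Cxcl12, Ccl22, Ccl9, Cxcl10, Ccl24, Cxcl1, Ccl2, Ccl19 and Ackr2), the highest and lowest livers of the 5 groups of 5 to 8 animals were checked for a gap to the next liver that was large for the range of the group. Of 45 combinations of gene and group, 7 had such a liver. The rule flags about 1 in 20 for independent, normally distributed values. Here it was used on untransformed CPM of genes from the same livers, so the 7 cannot be set against that rate. Cxcl12 was at 446 CPM in BWM 7, against 344 CPM in the next highest BWM liver. Ccl24 was at 16.2 CPM in Lean 5, against 9.69 CPM in the next highest, and this is the liver without which the Lean difference was not called. Cxcl1 was apart in 3 groups, at 2.68 CPM in BWM 6 (next 1.15), at 15.1 CPM in liraglutide 4 (next 2.54) and at 9.24 CPM in saline 5 (next 4.97). Ccl2 was at 5.55 CPM in PYY3-36 5, against 0.613 CPM in the next highest, and at 0.192 CPM in Lean 6, the lowest of its group, against 0.554 CPM in the next. Liraglutide 4 and PYY3-36 5 are among the 6 libraries that stood apart on the first principal component.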

How the results depend on the processing

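Between RYGB and sham, 4 genes were called, and 4 to 6 in the alternatives fitted on both batches and all 8 groups (Ccl20, higher in RYGB, was a call only with no filter on low counts), 3 in the 55 libraries of 6 groups, where Cxcl10 was not called, and 3 to 5 when single livers were left out. The count fell to 2 in batch A alone, where Ccl22 and Cxcl10 were tested and not called. It was also 2 when only the 2 groups were fitted, where Ccl22 did not pass the filter, and 0 in batch B alone. In Lean over sham, Ccl24 was the 1 call, and 0 were called by DESeq2 without batch, without the batch term, in batch A alone and when only the 2 groups were fitted, with a range of 0 to 1 over single livers left out. In BWM over sham (0 called), DESeq2 with batch gave 1, DESeq2 without batch 3 and no batch term 1. In RYGB over BWM (0 called), both DESeq2 fits, the fit without the 6 libraries and the fit of the 2 groups gave 1 each, limma-voom 2 and batch A alone 2, with 0 to 1 over single livers left out. The test of RYGB against liraglutide+PYY3-36 effects (0 called) gave 1 in DESeq2 with batch. Among all groups (4 called), DESeq2 without batch gave 15, limma-voom 13, no batch term 12, batch A alone 9, the 55 libraries of 6 groups 2 and batch B alone 0. The drug comparisons and sham over saline gave 0 in every alternative run. Replicate numbers were not taken to pair the livers, and pairing was not tested. Of 12 RYGB and sham pairs, 3 correlated above 0.1 (median -0.0372, lowest -0.462). In PYY3-36 and saline it was 0 of 4 pairs (median -0.202). In Lean and sham it was 4 of 6 (median 0.145), and in liraglutide+PYY3-36 and saline 4 of 8 (median 0.0887). With the replicate block, 4 genes were called in RYGB over sham, with Cxcl13 in and Ccl22 out, 1 in RYGB over BWM and 12 between batches, against 23. For correlated pairs (1 called, Cxcl12 and Ackr3), raw log2 CPM gave 2 other pairs, Ccl19 and Ackr4 and Ccl21 and Ackr4, and batch A alone and the fit without the 6 libraries gave 1 each, which was not Cxcl12 and Ackr3. That pair was among the 2 in batch B alone and the 3 with Spearman's rho. For Cxcl11 and Ackr3, r was 0.243 in batch A and 0.117 without the 6 libraries. The causes of these changes were not tested. The shares of all genes called in these alternatives are not given here, so the counts of called genes cannot be set against them. Of the 2898 values of named genes with 1 liver left out, 15 changed side of the threshold and none changed direction. Low depth limits Ccl22 and the 24 genes left out of the main test.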
